A study of Mus musculus with 6 samples.

Results

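The genes described here set whether a cell passes from G1 into S phase. They are the INK4 inhibitors Cdkn2a, Cdkn2b, Cdkn2c and Cdkn2d, the inhibitor Cdkn1b (p27Kip1), the D-type cyclins Ccnd1, Ccnd2 and Ccnd3, and their kinases Cdk4 and Cdk6. They were chosen by name, as all probe sets whose only gene symbol was 1 of these 10. This gave 25 of the 45037 non-control probe sets, and 10 of the 18193 genes with a probe set of their own. All 10 genes were tested on at least 1 probe set, and 23 of the 25 probe sets passed the filter on low signal.

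The samples were dermal fibroblasts explanted from newborn mice aged 0 to 2 days and grown to passage 4, labelled as strain B6. Per the labels they came from crosses of wildtype BL6 females with males of a mixed 129/ICR background that carried an X-linked GFP transgene under a chicken beta-actin promoter and CMV enhancer. In all 3 groups cells without GFP had first been collected by cell sorting from cultures of heterozygous females. The 2 control samples were untreated and not sorted again, and 1 of them, replicate 2, is labelled as of mixed sex where the other 5 are labelled female. The description of that replicate says female mice, so its sex is not settled by the labels. The other 4 samples had 4 μM 5-aza-2'-deoxycytidine, which depletes DNA methyltransferases, for 48 hours and 24 hours of recovery, per their treatment labels, and were then sorted into GFP-negative cells (2 samples) and GFP-positive cells (2 samples), in which the silent transgene had become active. The descriptions of these 4 read as untreated with the drug, which was taken as a slip. Drug and second sort cannot be told apart against control. Total RNA was hybridised to 1 Affymetrix mouse genome array per sample, so precision is limited by there being 2 arrays a group.

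D-type cyclins bind and activate Cdk4 and Cdk6 in G1, and the kinases phosphorylate the retinoblastoma protein, which then releases E2F transcription factors. INK4 proteins bind Cdk4 and Cdk6 and block them, while p27 inhibits cyclin E with Cdk2 and also binds cyclin D complexes. The Cdkn2a gene has a pair of starts and encodes both p16INK4a and the unrelated protein p19Arf, which restrains Mdm2. In cultured mouse fibroblasts Cdkn2a and Cdkn2b are known to accumulate with passage. Cyclin D1 is a classical target of growth factor signals.

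The signal of a probe set is a brightness on a linear scale, brought to the same trimmed mean on every array. Log2 differences were taken after 30.64 had been added to each signal, are given ± standard error, and understate the change of dim probe sets. Signals of different probe sets cannot be set against each other. Replicate 1 arrays had a lower quartile of 38.7 to 42.6 and replicate 2 arrays of 19.2 to 22.6, in every group, so each difference is also given within replicate 1 and within replicate 2. The fit is given without a block and with the replicate number as a block, and a change counts as called at an adjusted p under 0.05. Each standard error is that of the fit without a block, also where a blocked p-value stands beside it.

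Of the defining fibroblast markers all 9 were tested. Their summed signal was 176950 to 178798 on the control arrays, 133520 to 145101 on the GFP-negative and 131897 to 135678 on the GFP-positive arrays. The markers did not move alike. Dcn read 12516 and 2957 in control, 2720 and 334 in GFP-negative and 1496 and 203 in GFP-positive cells. Lum read 2320 and 934, 274 and 51.6, and 291 and 93.0 in the same order. Vim, at 36593 and 45534, 39516 and 45479, and 40369 and 53040, was the only marker not lower than control in GFP-positive cells in both replicates. The summed signal of 6 skeletal muscle markers was higher on treated arrays (13071 to 16666) than on control arrays (4492 to 9471), nearly all of it from Acta1, and that of the 6 measured leukocyte markers, mostly Csf1r, was 1065 to 1323 against 747 to 942. The summed signal of the 5 endothelial markers was lower on treated arrays, at 332 to 520 in GFP-negative and 245 to 481 in GFP-positive cells against 534 to 610 in control. Over the 7 marker lists of other cell types, the endothelial gene Pecam1 was the only marker below the offset on all 6 arrays. Their part in the differences described here was not tested. In whole samples, fewer cells of a type and less RNA per cell cannot be told apart.

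The promoters of 8 of the 10 genes were found in the RefSeq table of promoters (build GRCm38.p6), in 11 windows. No window was found for Ccnd1 and Ccnd2, so their promoters were not searched for CpG or motifs. Shown first are Cdkn2a, at both starts, and Cdkn1b, which were called lower in GFP-positive cells with the block, beside Cdkn2b, the neighbour of Cdkn2a on chromosome 4, which was not called. Each sequence holds the 250 bases before the annotated start, 5′ to 3′, with CpG dinucleotides, the sites that DNA methylation uses, in capitals. Methylation itself was not measured on these arrays.
Cdkn2a, outer start, of the Arf transcript (chr4:89294620-89294869, minus strand): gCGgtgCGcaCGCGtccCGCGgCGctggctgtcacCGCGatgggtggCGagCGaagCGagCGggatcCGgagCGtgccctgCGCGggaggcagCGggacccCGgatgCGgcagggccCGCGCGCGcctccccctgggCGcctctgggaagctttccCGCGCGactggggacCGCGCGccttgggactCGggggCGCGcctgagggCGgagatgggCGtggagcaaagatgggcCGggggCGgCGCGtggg
Cdkn2a, inner start, of the p16INK4a transcript (chr4:89282193-89282442, minus strand): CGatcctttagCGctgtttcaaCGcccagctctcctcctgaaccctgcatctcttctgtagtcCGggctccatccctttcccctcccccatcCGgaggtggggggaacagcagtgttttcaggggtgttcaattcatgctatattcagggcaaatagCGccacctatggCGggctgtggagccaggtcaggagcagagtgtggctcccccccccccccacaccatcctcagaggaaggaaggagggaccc
Cdkn2b (chr4:89311033-89311282, minus strand): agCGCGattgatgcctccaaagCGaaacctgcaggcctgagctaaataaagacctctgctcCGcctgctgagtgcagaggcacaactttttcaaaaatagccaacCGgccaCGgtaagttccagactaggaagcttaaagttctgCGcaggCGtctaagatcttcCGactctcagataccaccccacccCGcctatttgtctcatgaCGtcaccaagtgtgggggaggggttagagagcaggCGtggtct
Cdkn1b (chr6:134920151-134920400, plus strand): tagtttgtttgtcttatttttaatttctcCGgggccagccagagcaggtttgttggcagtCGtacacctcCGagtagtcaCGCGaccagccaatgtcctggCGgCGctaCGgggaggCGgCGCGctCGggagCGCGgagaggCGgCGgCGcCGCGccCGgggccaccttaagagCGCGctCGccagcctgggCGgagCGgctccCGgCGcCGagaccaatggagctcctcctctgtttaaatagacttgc

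The Arf window held 40 CpG, a number reached by 1.31% of the 32851 windows of this length in the table. The inner Cdkn2a window held 7 (reached by 46.3% of windows), Cdkn2b 12 (33.5%) and Cdkn1b 28 (7.61%). The median of all windows was 6. All of these windows lay above that median. For Cdk4 the same length is shown with the E-box CACGTG, a palindrome that Myc and related factors bind, in capitals.
Cdk4 (chr10:127063285-127063534, plus strand): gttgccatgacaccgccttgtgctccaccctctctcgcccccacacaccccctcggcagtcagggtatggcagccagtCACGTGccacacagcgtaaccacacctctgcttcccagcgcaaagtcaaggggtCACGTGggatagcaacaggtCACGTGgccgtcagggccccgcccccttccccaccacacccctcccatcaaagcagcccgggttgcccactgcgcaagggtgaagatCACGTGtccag

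The Cdk4 window held 4 E-boxes, which 0.0213% of all windows match or exceed, and 6.02% of windows hold at least 1. It held 13 CpG (31.5%). Of the 11 windows of these genes, that of Cdk6 was the only other with an E-box. The E2F motif (TTTGGCGC, TTTCGCGC or TTTCCCGC, both strands) was found in 1 of the 11 windows, that of the Arf start, and in 1.53% of all windows. Also searched were the GC box GGGCGG, in 7 of the 11 windows and 32.7% of all, and CCAAT, in 3 of the 11 and 33.8% of all. The AP-1 motif TGANTCA was in 0 of the 11 windows and in 6.75% of all. The inner part of an E2F motif can also count as CpG. Such matches describe these letters and are not evidence of binding.

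No probe set of these genes passed the test in limma without a block in any comparison. In GFP-positive against control cells the count was 0 of 23, where 0.0888% of all 27022 probe sets passed as higher and 0.0333% as lower, and 7 of 23 had an unadjusted p under 0.05 against 7.04% of all. With the replicate number as a block 2 of 23 were called higher, both of Ccnd1, and 4 lower, of Cdkn2a, Cdkn1b and Cdk4 (2), where 3.15% of all probe sets passed as higher and 3.06% as lower. Without a mean-variance trend the blocked fit called 0 of the 23. The median difference over the 23 was -0.24, against 0.039 over all probe sets tested.

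In GFP-negative against control cells limma without a block called 0 of 23, with 0.0259% of all probe sets higher and 0.0037% lower, and 4 of 23 had an unadjusted p under 0.05 against 5.07% of all. With the block 1 was called higher, of Ccnd1, and 2 lower, both of Cdk4, where 1.9% of all were called higher and 1.68% lower; without a trend the blocked count was 0. The median over the 23 was -0.029 against 0.040 over all. Both comparisons used the same control arrays.

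**Figure D1:**
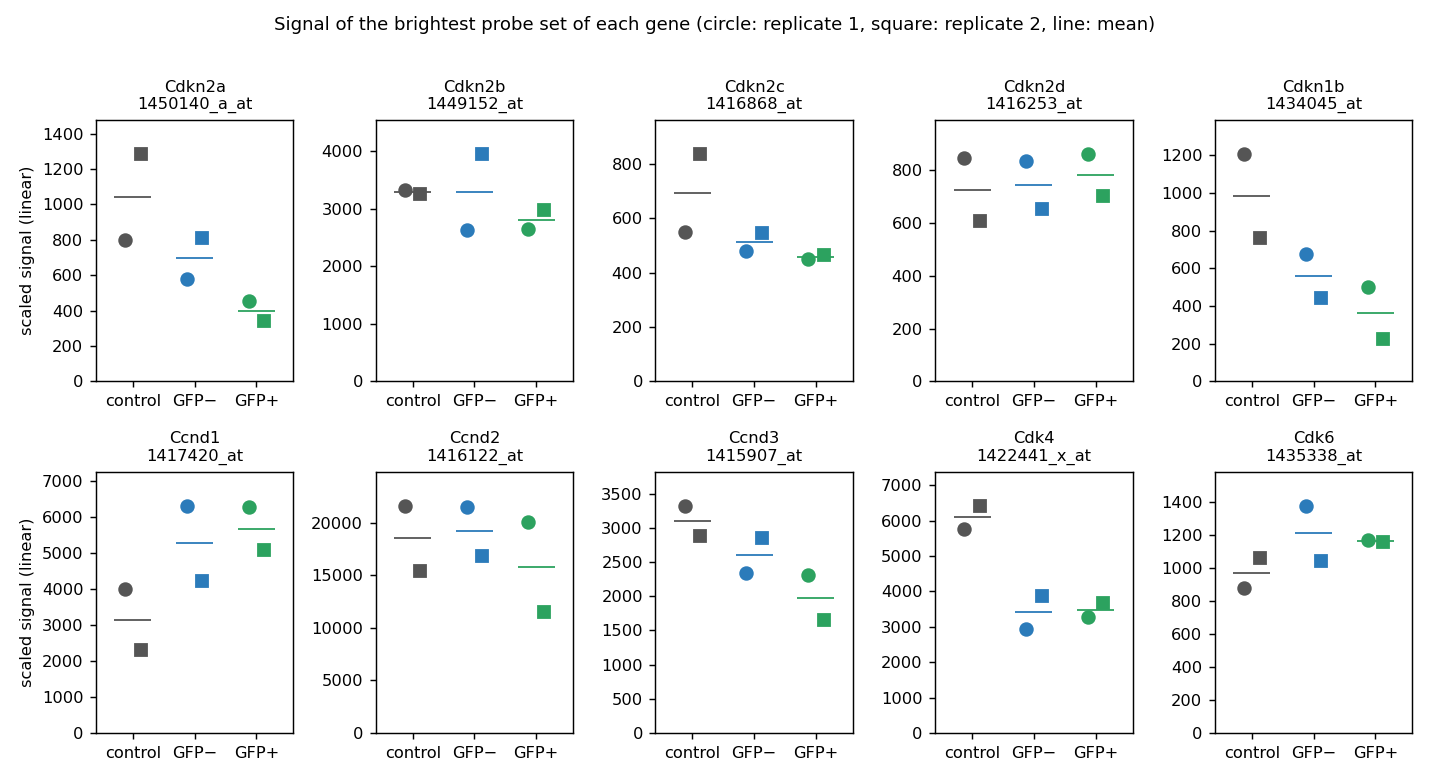
Scaled signal (linear, from 0) of the brightest probe set of each of the 10 genes on the 6 arrays, with circles for replicate 1, squares for replicate 2 and a line at the mean of 2 arrays. Cdk4, Cdkn1b, Cdkn2c and, narrowly, Ccnd3 show both treated groups below the control arrays, and Ccnd1 shows both above. Cdkn2d and Ccnd2 overlap with control in both.

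Among the inhibitors, Cdkn2a had the largest separation of the INK4 genes. Its probe set read 797 and 1285 in control, 581 and 812 in GFP-negative and 456 and 339 in GFP-positive cells. Both GFP-positive arrays lay below both control and both GFP-negative arrays, while GFP-negative and control overlapped. The difference of GFP-positive from control was -1.30 ± 0.33 (-0.77 and -1.83 within replicates 1 and 2; limma adjusted p = 0.315, or 0.0113 with the block, and 0.0113 to 1.00 over the alternatives tried). GFP-negative differed from control by -0.54 ± 0.33 (-0.44 and -0.64; adjusted p = 1.00, or 0.318 with the block). The table names this probe set only by gene, so p16INK4a and p19Arf transcripts were not separated.

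Cdkn2b, which encodes p15INK4b and neighbours Cdkn2a, read 3328 and 3257 in control, 2635 and 3946 in GFP-negative and 2640.4 and 2974 in GFP-positive cells. GFP-negative arrays lay on either side of the control pair, and both GFP-positive arrays below it. Its difference from control was -0.23 ± 0.25 in GFP-positive (-0.33 and -0.13) and -0.029 ± 0.25 in GFP-negative cells (-0.33 and 0.27), with adjusted p-values of 0.997 and 1.00. Cdkn2b thus stood nearer to control than Cdkn2a in both groups; the difference between the genes was not tested.

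Cdkn2c, the INK4 member p18, read 549 and 836 in control, 478 and 544 in GFP-negative and 449 and 463 in GFP-positive cells. All 4 treated arrays lay below both control arrays, and control replicate 1 was close to GFP-negative replicate 2. The differences were -0.54 ± 0.29 in GFP-positive (-0.27 and -0.81; adjusted p = 0.832, or 0.168 with the block) and -0.39 ± 0.29 in GFP-negative cells (-0.19 and -0.59; adjusted p = 1.00). Cdkn2d, the INK4 member p19INK4d, read 846 and 606 in control, 835 and 655 in GFP-negative and 861 and 703 in GFP-positive cells. Its groups overlapped, and its differences were 0.11 ± 0.28 and 0.044 ± 0.28.

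Cdkn1b was lower in treated cells on its brighter probe set, 1434045_at, which read 1205 and 760.2 in control, 677 and 444 in GFP-negative and 500.4 and 223 in GFP-positive cells. Within each replicate number the order was control, then GFP-negative, then GFP-positive, and all treated arrays lay below both control arrays. GFP-positive differed from control by -1.43 ± 0.42 (-1.22 and -1.64; limma adjusted p = 0.429, or 0.00212 with the block, and 0.00212 to 1.00 over the alternatives). GFP-negative differed by -0.77 ± 0.42 (-0.81 and -0.74; adjusted p = 1.00, or 0.0715 with the block). Its dim probe set, 1419497_at, read 87.8 and 97.7 in control, 54.9 and 87.1 in GFP-negative and 65.6 and 38.6 in GFP-positive cells, and differed by -0.59 ± 0.60 and -0.30 ± 0.60, with standard errors larger than the values.

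**Figure D2:**
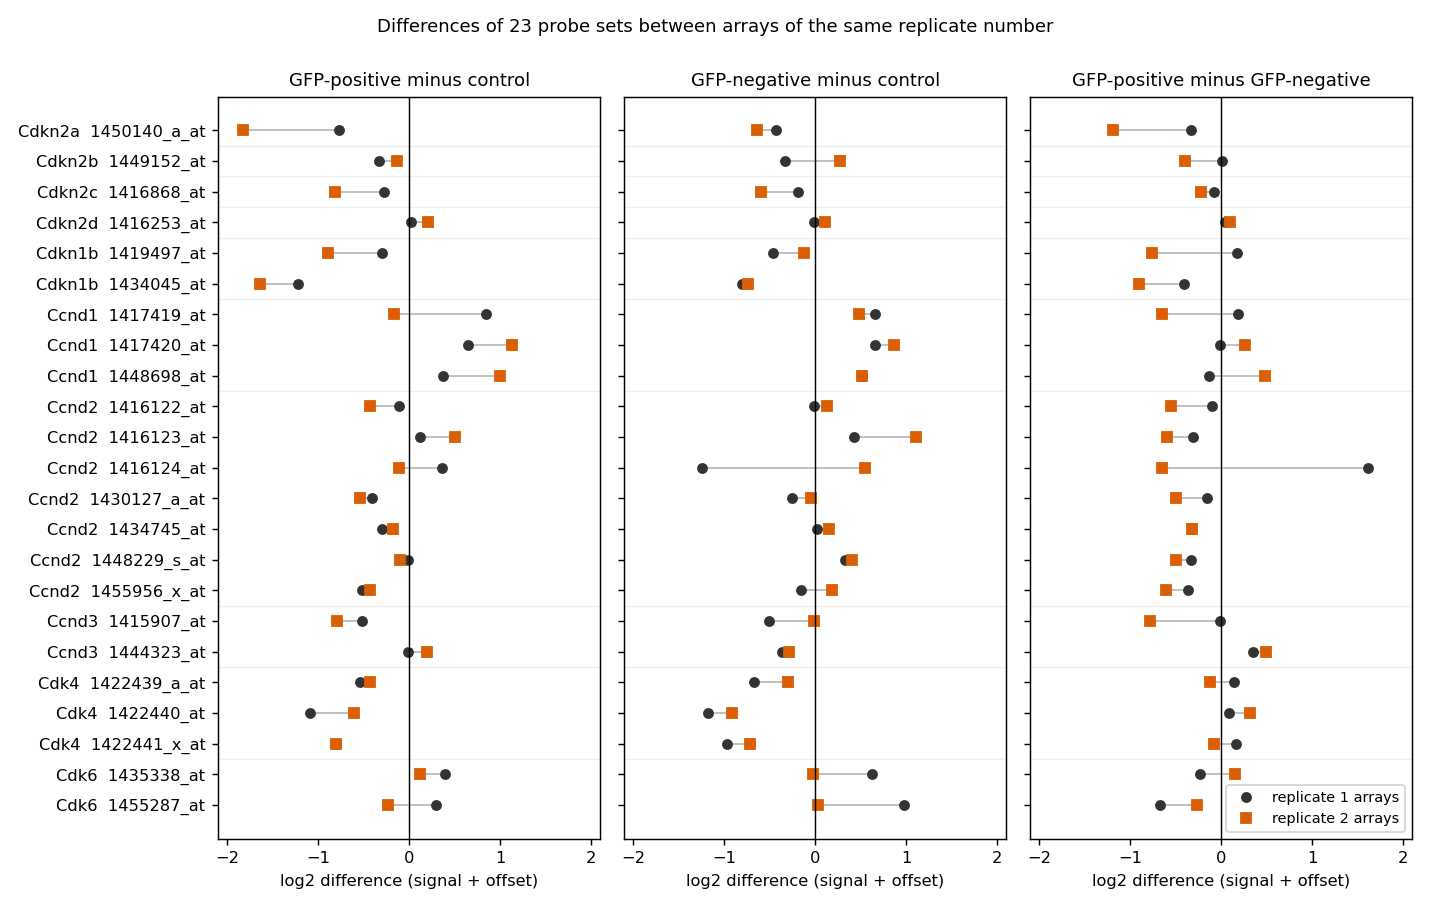
Log2 differences of the 23 tested probe sets between arrays of the same replicate number, for GFP-positive minus control, GFP-negative minus control and GFP-positive minus GFP-negative cells, with circles for replicate 1 and squares for replicate 2. Cdkn2a, Cdkn2c, Cdkn1b and Cdk4 lie below 0 in both replicates of both left panels, and 3 Ccnd1 probe sets lie above 0 with the exception of 1417419_at in replicate 2 of the first panel.

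Of the D-type cyclins, Ccnd1 was higher in treated cells on both of its brighter probe sets. Probe set 1417420_at read 4001 and 2306 in control, 6317 and 4224 in GFP-negative and 6276 and 5079 in GFP-positive cells. Every treated array lay above both control arrays, although GFP-negative replicate 2 was close to control replicate 1. The difference was 0.89 ± 0.32 in GFP-positive cells (0.65 and 1.13; limma adjusted p = 0.57, or 0.0046 with the block, and 0.0046 to 1.00 over the alternatives). In GFP-negative cells it was 0.76 ± 0.32 (0.65 and 0.87; adjusted p = 0.971, or 0.015 with the block, and 0.0149 to 1.00 over the alternatives).

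The second Ccnd1 probe set, 1448698_at, read 3466 and 2579.7 in control, 4953 and 3689.9 in GFP-negative and 4496 and 5177 in GFP-positive cells, again with all treated arrays above both control arrays. It differed by 0.68 ± 0.25 in GFP-positive (0.37 and 1.00; adjusted p = 0.574, or 0.035 with the block, and 0.035 to 1.00 over the alternatives) and by 0.51 ± 0.25 in GFP-negative cells (0.51 and 0.51; adjusted p = 1.00, or 0.143 with the block). The dimmest, 1417419_at, went another way on 1 array. It read 2584 and 1469 in control, 4098 and 2065 in GFP-negative and 4659 and 1302 in GFP-positive cells, so that GFP-positive replicate 2 was below its control while replicate 1 was above. Its difference in GFP-positive cells was 0.34 ± 0.59 (0.84 and -0.17), and in GFP-negative cells 0.57 ± 0.59 (0.66 and 0.48).

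Ccnd2, the cyclin with the most probe sets here, showed no direction against control that was common to all of them. On the brightest, 1416122_at, 1434745_at, 1430127_a_at and 1455956_x_at, GFP-positive was below control in both replicates (-0.11 and -0.43, -0.30 and -0.17, -0.40 and -0.54, -0.52 and -0.43). Probe set 1448229_s_at was also below in both, by little (-0.0085 and -0.096). In contrast 1416123_at was above in both (0.12 and 0.51), and 1416124_at had opposite signs (0.36 and -0.11). Over its 7 probe sets the difference of GFP-positive from control ran from -0.47 to 0.31, and that of GFP-negative from -0.35 to 0.77. None was called with or without the block; with the block and quantile normalization 2 passed as lower in GFP-positive cells, 1430127_a_at and 1455956_x_at (limma adjusted p = 0.0265 and 0.04999, against 0.0506 and 0.0539 with the block alone, and 0.0265 to 1.00 and 0.04999 to 1.00 over the alternatives). Its brightest probe set, 1416122_at, read 21637 and 15458 in control, 21486 and 16891 in GFP-negative and 20075 and 11503 in GFP-positive cells, with overlapping groups. The steadiest pair of arrays was on 1434745_at, which read 15049 and 13759.8 in control, 15298 and 15252 in GFP-negative and 12192 and 12187 in GFP-positive cells. There both GFP-positive arrays were below, and both GFP-negative arrays above, the control pair, by -0.24 ± 0.20 and by 0.086 ± 0.20.

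The Ccnd2 probe sets also differed in how far the replicate numbers stood apart. On control arrays the ratio of replicate 1 to replicate 2 was 1.09 on 1434745_at, 1.19 on 1455956_x_at, 2.43 on 1448229_s_at and 3.71 on 1416123_at. On 1416124_at that ratio was 1.92 in control and 2.67 in GFP-positive cells, but 0.539 in GFP-negative cells. Its GFP-negative difference from control was -1.24 and 0.55 within replicates 1 and 2, of opposite sign.

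**Figure D3:**
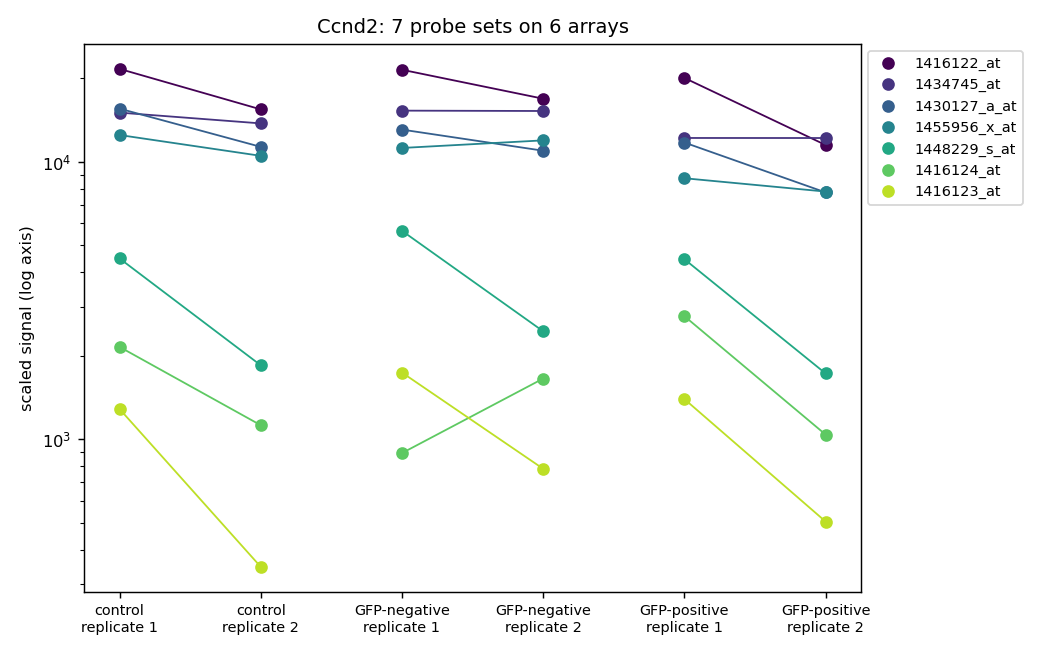
Scaled signal (log axis) of the 7 Ccnd2 probe sets on the 6 arrays, with a line joining the 2 arrays of a group. On the 4 brightest probe sets replicate 1 is at most 1.75 times replicate 2, while 1416123_at and 1448229_s_at are lower on every replicate 2 array and 1416124_at runs the other way in GFP-negative cells.

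Ccnd3 was lower in GFP-positive cells on its bright probe set, 1415907_at, which read 3326 and 2883 in control, 2338 and 2861 in GFP-negative and 2310.1 and 1652 in GFP-positive cells. Both treated groups lay below both control arrays, GFP-negative replicate 2 only just. The differences were -0.66 ± 0.25 (-0.52 and -0.79; adjusted p = 0.602, or 0.0551 with the block) and -0.26 ± 0.25 (-0.50 and -0.011; adjusted p = 1.00). Neither passed the test. The dim 1444323_at read 179 and 97.6 in control, 132 and 74.2 in GFP-negative and 177 and 117 in GFP-positive cells, and 1438805_at, with 84 and 50.4 in control, 15.1 and 68.5 in GFP-negative and 71.3 and 10.9 in GFP-positive cells, did not pass the filter.

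Cdk4, the kinase partner of the D-type cyclins, was lower in both treated groups on all 3 of its probe sets. Probe set 1422441_x_at read 5756 and 6418 in control, 2924 and 3882 in GFP-negative and 3279 and 3674 in GFP-positive cells, 1422440_at read 4165 and 5271 in control, 1829.9 and 2786 in GFP-negative and 1935 and 3462 in GFP-positive cells, and 1422439_a_at read 4579.9 and 4427 in control, 2850.3 and 3584 in GFP-negative and 3132 and 3287 in GFP-positive cells. On each of them every treated array lay below both control arrays, and GFP-positive and GFP-negative arrays overlapped. The difference on 1422441_x_at was -0.80 ± 0.22 in GFP-positive (-0.81 and -0.80; limma adjusted p = 0.383, or 0.00503 with the block, and 0.00503 to 1.00 over the alternatives) and -0.85 ± 0.22 in GFP-negative cells (-0.97 and -0.72; 0.534, or 0.00512 with the block, and 0.00512 to 1.00 over the alternatives). Its suffix marks a design whose probes may also match related transcripts.

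On 1422440_at the Cdk4 differences were -0.85 ± 0.33 (-1.09 and -0.60; adjusted p = 0.641, or 0.00745 with the block, and 0.00745 to 1.00 over the alternatives) and -1.04 ± 0.33 (-1.17 and -0.91; 0.689, or 0.00312 with the block, and 0.00312 to 1.00 over the alternatives). On 1422439_a_at they were -0.48 ± 0.21 and -0.49 ± 0.21, with blocked adjusted p-values of 0.0695 and 0.0926. Against the mean of both treated groups, which counts 4 treated arrays, all 3 Cdk4 probe sets were called lower with the block (adjusted p = 0.00143, 0.00133 and 0.0352, with ranges over the alternatives of 0.00143 to 1.00, 0.00133 to 1.00 and 0.0352 to 1.00).

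Cdk6, the other kinase of D-type cyclins, was not called in either direction. Its probe set 1435338_at read 881 and 1058 in control, 1376 and 1041 in GFP-negative and 1169 and 1155 in GFP-positive cells, and 1455287_at read 663 and 1109.8 in control, 1328 and 1138 in GFP-negative and 821 and 941 in GFP-positive cells. The differences were 0.26 ± 0.25 and 0.033 ± 0.29 in GFP-positive and 0.30 ± 0.25 and 0.50 ± 0.29 in GFP-negative cells. Its other, dim probe set, 1460291_at, read 25.5 and 13.1 in control, 101 and 106 in GFP-negative and 56.8 and 78.2 in GFP-positive cells. It lay above control on all treated arrays but did not pass the filter, and both control arrays were below the offset.

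With the mean of both treated groups set against control, limma without a block called 0 of the 23 (7 at an unadjusted p under 0.05, against 7.54% of all), with 0.133% of all probe sets higher and 0.0481% lower. With the block 2 were called higher, of Ccnd1, and 5 lower, of Cdkn2a, Cdkn1b and Cdk4 (3), where 3.67% of all were called higher and 3.32% lower. Without a trend the blocked count was 0. The standard errors that follow are of the fit without the block. With it they were 0.18 for Cdkn1b on 1434045_at, 0.22 for Cdkn2a and 0.12 for Ccnd1 on 1417420_at. The blocked adjusted p was 0.0038 for Cdkn1b (-1.10 ± 0.37; 0.00359 to 0.878 over the alternatives), 0.0265 for Cdkn2a (-0.92 ± 0.28; 0.0265 to 0.978) and 0.00258 for Ccnd1 on 1417420_at (0.82 ± 0.28; 0.00258 to 1.00).

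Both arrays of the GFP-positive group lay below both control arrays on 11 of the 23 probe sets and above on 3, where the shares over all probe sets tested were 14.9% and 17.3%. For the GFP-negative group the counts were 7 below and 4 above, with 13.5% and 15.1% over all. The probe sets of 1 gene are not independent of each other, and 3 of the 11 are of Cdk4. Also among the 11 are 1419497_at and 1434045_at of Cdkn1b, and 1434745_at and 1455956_x_at of Ccnd2.

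GFP-positive and GFP-negative cells were set against each other to ask whether reactivation of the transgene marks cells that differ in these genes. Limma called 0 of the 23 probe sets with or without the block, as it called 0% of all probe sets higher and 0% lower in each fit, and 1 of the 23 (Ccnd2 on 1455956_x_at) had an unadjusted p under 0.05 against 0.625% of all. Both GFP-positive arrays lay below both GFP-negative arrays on 6 of 23 and above on 0, where the shares over all were 10% and 10.6%. The 6 were of Cdkn2a, Cdkn2c, Ccnd2 (2), Ccnd3 and Cdk6.

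Cdkn2a had the largest of these differences, -0.76 ± 0.33 (-0.33 and -1.19 within replicates 1 and 2; adjusted p = 1.00, or 0.797 with the block). Cdkn1b was at -0.66 ± 0.42 on 1434045_at (-0.41 and -0.91; adjusted p = 1.00). On 6 of the 7 Ccnd2 probe sets GFP-positive was below GFP-negative in both replicates, and 1416124_at, at 1.61 and -0.65, was the exception. The Ccnd2 difference was -0.49 ± 0.21 on 1455956_x_at (-0.36 and -0.61; adjusted p = 1.00). For Cdk4 the treated groups stood within 0.20 of each other on all 3 probe sets, with standard errors of 0.21 to 0.33.

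Other genes of the pathway were taken from 6 lists with 91 genes, of which 89 had a probe set of their own and 87 were tested, each on its brightest. In GFP-positive against control cells limma called 1 of the 87, the AP-1 subunit Fosl1 (16 at an unadjusted p under 0.05, against 7.04% of all probe sets). With the block it called 12 higher and 4 lower, where 3.15% of all were called higher and 3.06% lower. In GFP-negative cells limma called 0 of the 87 (14 at an unadjusted p under 0.05, against 5.07% of all). With the block it called 10 higher and 2 lower, where 1.9% of all were called higher and 1.68% lower. The same shares stand beside the counts of each list below. Over all probe sets tested, 53.7% were above control in GFP-positive and 54.3% in GFP-negative cells. Without a trend the blocked fit called 0 in either comparison.

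The retinoblastoma and E2F list, which holds the targets of Cdk4 and Cdk6 and the cyclin E step, had 17 of 18 genes tested. Of these 14 were above control in GFP-positive and 13 in GFP-negative cells, with medians of 0.29 and 0.38 against 0.039 and 0.040 over all probe sets. With the block 3 passed in GFP-positive cells, Rb1 (0.77), E2f7 (0.84) and Ccne2 (0.95), and 2 in GFP-negative cells, Ccne1 (0.90) and Ccne2 (1.01). Rb1, the retinoblastoma gene itself, read 735 and 625 in control, 1172 and 915 in GFP-negative and 1274 and 1087 in GFP-positive cells, with all treated arrays above control. Cyclin E2, Ccne2, read 409 and 401 in control, 647 and 1113 in GFP-negative and 697 and 944 in GFP-positive cells. The kinase of the E cyclins, Cdk2, was at 0.10 and -0.11 and was not called. These values ran beside a lower Cdk4 and a higher Ccnd1, and no test links them.

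Of the other CDK inhibitors and the CDK-activating kinase all 8 were tested, with medians of 0.066 and -0.0096. The inhibitor Cdkn1a (p21), a p53 target, read 6804 and 7761 in control, 11316 and 10837 in GFP-negative and 11306 and 11567 in GFP-positive cells. It was called higher with the block in both groups (0.65 ± 0.20 and 0.61 ± 0.20; limma adjusted p = 0.443 and 0.707 without and 0.0101 and 0.0211 with it; 0.00363 to 1.00 and 0.0067 to 1.00 over the alternatives), opposite in sign to Cdkn1b. Cdkn1c (p57), of the same family, was at -0.27 and 0.16 and was not called. Next in order of p came Mnat1 (0.33 and 0.094), Cdkn3 (0.19 and -0.13) and Cables1 (-0.016 and -0.37), with unadjusted p-values in limma of 0.258 or more and no call.

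Genes for turnover of p27 and D cyclins showed no call: 0 of 14 with or without the block in limma, and 0 at an unadjusted p under 0.05, in either group, with medians of -0.049 and -0.072. The members with the smallest p in either comparison were the scaffolds Cul1 (0.33 in GFP-positive and 0.17 in GFP-negative cells) and Cul4a (0.43 and 0.31), the adaptor Ddb1 (-0.39 and -0.27) and Fbxo4, an F-box protein for cyclin D1 (-0.17 and -0.47).

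Among regulators of the INK4 locus and partners of Arf, 20 of 22 were tested, with medians of 0.19 and 0.075. With the block 3 were called higher in each group, namely the transcription factor Ets1 (0.87 and 0.93), known as an activator of p16INK4a, its antagonist Id1 (1.02 and 1.07), and the p53 ubiquitin ligase Mdm2 (1.63 and 1.14). Ets1 read 1199 and 984 in control, 2185 and 2025 in GFP-negative and 1954 and 2078 in GFP-positive cells. Twist1, a repressor of the locus, was called lower with the block in both groups (-0.88 and -0.75), and the histone demethylase Kdm6b, named after its values were seen, in GFP-positive cells (-0.74). Id1 differed far more within replicate 2 (0.35 and 1.69 in GFP-positive cells).

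Of the transcription factors upstream of D cyclins and p27 all 13 were tested, with medians of 0.25 and 0.30. Fosl1 read 304 and 444 in control, 1491 and 1565 in GFP-negative and 1532 and 1952 in GFP-positive cells, a difference of 2.14 ± 0.27 in GFP-positive cells (limma adjusted p = 0.0456, and 5.31e-05 to 0.357 over the alternatives) that lost its call when any of the 6 arrays was left out, at values from 1.89 to 2.39. With the block, Jun (1.36) and Myc (0.62, named after its values were seen) were also called higher in GFP-positive cells, and Stat3 (-0.95) and the Hedgehog effector Gli2 (-1.86) lower. In GFP-negative cells Fosl1 and Jun were called higher (1.97 and 1.07) and Gli2 lower (-1.93). Jun and Fosl1 form AP-1, a known activator of Ccnd1 transcription, and Gli2 also acts on D cyclins.

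Of 16 proliferation genes 15 were tested, of which 12 were above control in GFP-positive and 14 in GFP-negative cells, with medians of 0.37 and 0.30. With the block, Rrm2 (0.96 and 1.02) was called higher in both groups, Aurka (0.63) in GFP-positive and Cdc6 (1.27) in GFP-negative cells. Top2a was at 0.55 and 0.44 and was not called.

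**Figure D4:**
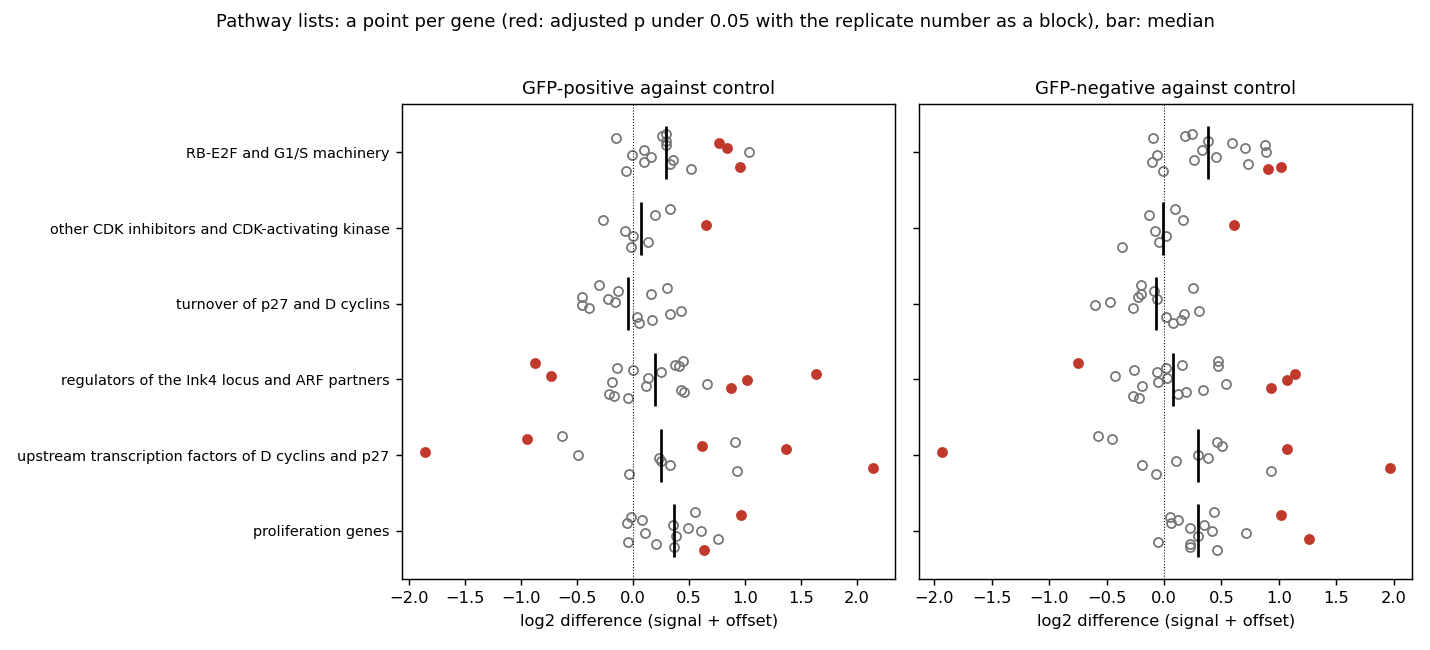
Log2 difference of each tested gene of the 6 pathway lists in GFP-positive and GFP-negative against control cells, with a bar at each list's median and red for an adjusted p under 0.05 with the replicate number as a block. The retinoblastoma and proliferation lists lie mostly above 0, while the turnover list is centred near 0 with no red point.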

How the data were processed

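Per the labels, total RNA of 6 samples was measured on 1 array each, 2 per group, called biological replicates; nothing more says that they are separate cultures, so a p-value here measures only how these samples vary, which may be technical. The deposited values are signal intensity per probe set on a linear scale, made by the authors with MAS5 per the submitters' processing notes, version and settings not given in the sources used here. Their 2% trimmed mean stood at 500.003 or 500.004 on 4 arrays; it was 62.02 for GFP-negative replicate 2 and 50.53 for GFP-positive replicate 2, so each array was scaled to 500 (factors of 8.06 and 9.90 for these). Of 45101 probe sets, 64 controls were left out, 34945 of the rest had 1 symbol, 932 several and 9160 none. Gene names came from the platform's annotation.

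Before log2, 30.64 was added, the median of the arrays' 25th percentiles. Probe sets with a mean signal at or above the 40th percentile (67.71) were tested: 27022. R 4.3.3 with limma 3.58.1 fitted all 6 arrays (lmFit, eBayes with a trend, 3 residual degrees of freedom, or 2 with the block), two-sided, with Benjamini-Hochberg adjustment over all probe sets across the whole table. Deviations from the group mean of arrays with the same replicate number correlated at 0.506 to 0.556 over probe sets in all 3 pairs of groups. The replicate number was therefore also fitted as a block, and the blocked fit is printed beside. The labels give these as biological replicate numbers and do not say whether a number marks a shared culture or litter. The correlation cannot tell a pairing of samples from a difference between the sets of arrays. The fit was also run on simulated data with independent normal noise and a built-in shift between replicate numbers, and no result here rests on that run.

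The genes, lists and alternatives were chosen with earlier results of these data known. Named are the 10 genes at every probe set, 7 pathway genes always (Rb1, Ccne1, Ccne2, Cdk2, Cdkn1a, Cdkn1c and Mdm2), and the 4 genes of smallest p of each list. Alternatives were other normalizations, offsets, filters, thresholds, no trend, the block, only the groups compared, probe sets that can bind related transcripts left out, the mean over probe sets, and each array left out. A pair was chosen after seeing the data: quantile normalization together with the block, and both rescaled arrays left out.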

Additional observations from a re-analysis of the deposited data

How the results depend on the processing

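Without a block, 0 of the 23 probe sets were called in each of the 4 comparisons under each alternative tried. With the replicate block 6 were called in GFP-positive against control, 3 in GFP-negative against control and 7 for both treated groups averaged; with the replicate block and quantile normalization these counts were 8 (the further 2 of Ccnd2), 3 and 7, and with the replicate block and no trend 0. The cause of the loss without a trend was not tested. In GFP-positive against control the pathway genes called went from 1 to 16 with the replicate block (14 with quantile normalization too), 2 at an adjusted p threshold of 0.1, and 0 with median centring, the filter at the 60th percentile, no trend (with or without the block), only the groups compared, both rescaled arrays left out, or any array left out (0 to 0). In GFP-negative against control they went from 0 to 12 with the replicate block (10 with quantile normalization too) and to 1 at the threshold of 0.1 or without both rescaled arrays. For the mean of both treated groups they went from 1 to 18 with the block (17 with quantile normalization too), 4 at the threshold of 0.1, 2 with quantile normalization, the mean over probe sets, or both rescaled arrays left out, 0 with median centring or no trend (with or without the block), and 0 to 1 with 1 array left out. The replicate block changed no call between GFP-positive and GFP-negative cells. Over all alternatives the difference of GFP-positive from control was -1.96 to -0.90 for Cdkn1b (1434045_at), -1.63 to -0.96 for Cdkn2a, -0.88 to -0.72 for Cdk4 (1422441_x_at), -1.26 to -0.43 on 1422440_at and 0.49 to 1.28 for Ccnd1 (1417420_at), always of 1 sign. With 1 array left out the sign turned for 8 of the 23 probe sets in GFP-positive against control, 9 in GFP-negative against control, 9 for both treated groups averaged and 13 between the treated groups (3, 1, 3 and 5 with both rescaled arrays left out), none of them called in that comparison with the block. Those whose difference exceeded its standard error were Cdk6 1455287_at in the mean of both treated groups (-0.091 to 0.63, negative without control replicate 1), Ccnd2 1416123_at in GFP-negative against control (-0.13 to 1.67, negative without control replicate 2) and Ccnd2 1416122_at between the treated groups (-0.73 to 0.075, positive without GFP-positive replicate 2). Leaving out 1 array was done without a block, so those values also carry the difference between replicate numbers, and the array left alone in its group is assumed to vary like the other groups. Another scaling moved the median of all probe sets by under 0.1.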

Other observations

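On the GFP-positive arrays 14 of the 23 probe sets were below control in both replicates and 5 above in both, where 28.5% and 34.6% of all probe sets tested were; on the GFP-negative arrays the counts were 10 and 7, with 26.8% and 33.8% over all. Between the treated groups 11 were lower in GFP-positive cells in both replicates and 3 higher, with 27.4% and 26.6% over all. Of the 3 Ccnd1 probe sets, 1417419_at had a ratio of replicate 1 to replicate 2 of 3.58 in GFP-positive cells, where 1417420_at had 1.24 and 1448698_at 0.868. Of the promoter windows not printed, the Cdkn2c starts held 29 and 6 CpG, Cdkn2d 16, Cdk6 22 and the Ccnd3 starts 19 and 11.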
